A study of Mus musculus with 29 samples.

Results

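The comparison asked what rosiglitazone changed in the liver when the diet already held omega-3 phospholipids. Its members are the 16 arrays whose labels give a high-fat diet with phospholipids, of 29 in the series: 8 livers of mice that also received rosiglitazone (cHF+PC+R) and 8 of mice that did not (cHF+PC). All mice were C57BL/6N wild-type males, aged 3 months and on chow before the study, and for 7 weeks all had free access to a high-fat diet made with corn oil. In both groups about 7% of the lipid in the diet was replaced by a concentrate of the omega-3 fatty acids EPA and DHA in the form of phospholipids rich in phosphatidylcholine. In cHF+PC+R the diet also held rosiglitazone, at a dose the labels call low without a figure. The livers of 7 mice on the plain diet (cHF) and 6 on that diet with rosiglitazone (cHF+R) served to set the same drug's change without phospholipids beside it.

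Rosiglitazone is a ligand of PPAR-gamma, a nuclear receptor that drives fat storage genes in adipocytes and is scarce in the normal liver. With its partner RXR the receptor binds pairs of the short motif AGGTCA. Fatty livers of mice can make more PPAR-gamma, and then express genes of lipid droplets that are otherwise typical of fat tissue. EPA and DHA bind PPAR-alpha, the related receptor that drives fatty acid oxidation in hepatocytes.

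Each array gave the log2 ratio of a liver's Cy5-labelled RNA to a Cy3-labelled pool of the livers, so a level of 0 equals the pool. In the 16 arrays between 56.6% and 61.4% of spots were well above background in Cy5, and 19509 genes were tested. Each slide from 1 to 8 carried 1 array of either group, so every change could also be taken within slides. The levels are those of whole liver, where fewer cells of a type and less RNA per cell cannot be told apart.

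Few genes passed the test, and most of those that did rose. At an adjusted p under 0.05 with limma and Benjamini-Hochberg adjustment over all genes, 26 genes differed between cHF+PC+R and cHF+PC, which is 0.133% of those tested. Of these 23 rose (0.118%) and 3 fell (0.0154%). With the arrays centred on their medians in place of loess 2 rose and 0 fell, and with scaling between arrays after loess 5 rose and 0 fell. The largest rises were those of Plin4, Cidec, Gprc5b, Serpinb1a and Anxa2, and 8 of the 26 changed at least 2-fold. In 21 of the 26 the difference had the same sign on all 8 slides and in the other 5 on 7 slides, while 2.07% of all genes had the same sign on all 8. The groups did not overlap in 6 of the 26, against 0.103% of all genes. The 26 genes were chosen for the difference between these same livers, so the counts of slides and of overlap are a description, with no test.

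The 250 bases upstream of the start of 4 of these genes are printed to show where the AGGTCA motif lies in genes that rose and that it was not found for the gene with the largest change that passed. They are the RefSeq sequences of GRCm38.p6, 5′ to 3′ on the gene's strand, with capitals marking AGGTCA or its complement TGACCT. Plin4 lies at chr17:56109783-56110032 (minus strand), Cd36 at chr5:17835897-17836146 (minus), Rdh9 at chr10:127776155-127776404 (plus) and Vegfb at chr19:6987652-6987901 (minus).
Plin4: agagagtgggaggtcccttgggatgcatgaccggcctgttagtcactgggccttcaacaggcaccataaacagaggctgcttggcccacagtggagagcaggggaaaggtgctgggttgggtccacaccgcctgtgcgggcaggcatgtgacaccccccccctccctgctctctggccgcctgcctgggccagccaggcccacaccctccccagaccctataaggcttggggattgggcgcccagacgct
Cd36: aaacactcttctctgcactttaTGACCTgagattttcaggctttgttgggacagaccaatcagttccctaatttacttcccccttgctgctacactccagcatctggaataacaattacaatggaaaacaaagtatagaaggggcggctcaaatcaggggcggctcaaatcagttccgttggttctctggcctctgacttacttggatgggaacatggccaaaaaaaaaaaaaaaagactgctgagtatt
Rdh9: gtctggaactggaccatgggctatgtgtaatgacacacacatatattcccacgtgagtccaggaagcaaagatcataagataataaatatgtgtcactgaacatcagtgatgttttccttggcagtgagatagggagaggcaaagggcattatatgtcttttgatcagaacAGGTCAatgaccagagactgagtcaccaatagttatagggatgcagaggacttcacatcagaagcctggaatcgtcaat
Vegfb: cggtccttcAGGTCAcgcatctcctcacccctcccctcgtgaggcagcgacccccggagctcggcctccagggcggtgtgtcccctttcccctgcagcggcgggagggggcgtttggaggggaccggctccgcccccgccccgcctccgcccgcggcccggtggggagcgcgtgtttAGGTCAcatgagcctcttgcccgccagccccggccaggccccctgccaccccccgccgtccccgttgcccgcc
The Plin4 window held no such letters. In Cd36 the motif began 228 bases before the start, on the opposite strand. In Rdh9 it began 79 bases before the start. In Vegfb it was present at 241 and again at 73 bases before the start. Of the 22 called genes with an entry in the table, 5 had the motif on either strand in at least 1 window, the others being Pitpnm1 and Alas2. That is 22.7%, beside 15.8% of all 27025 genes and 14.0% of all 32851 windows of this length, so the motif is common in such windows.

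The 2 largest changes that passed were those of Plin4 and Cidec, which both encode proteins of the lipid droplet. Plin4, which encodes a perilipin that coats lipid droplets, was at -3.00, -2.31 and -1.37 (lowest, median and highest log2 ratio) in cHF+PC and at -1.37, 0.14 and 1.08 in cHF+PC+R. It rose by 2.18 ± 0.344 (log2 change and its standard error), or 4.52-fold, with an adjusted p = 0.00267. Every treated liver lay above every control liver, though the lowest treated and the highest control livers were at almost the same level. Cidec, whose protein fuses lipid droplets, had -3.43, -2.41 and -1.86 in cHF+PC and -2.76, -0.45 and 1.44 in cHF+PC+R. Its rise of 2.06 ± 0.441 had an adjusted p = 0.0494, with higher values on all 8 slides and overlapping groups. Another Cidec probe, dimmer and not used in the count, gave 0.79 ± 0.315. The Cidec call was lost in 13 of the 16 fits that left out 1 liver of these groups, with adjusted p up to 0.146. Of the 15 measured members of a list of droplet proteins and lipases, which holds neither, 0 passed with limma, 0 were higher and 1 was lower at an unadjusted p under 0.05, and the median was -0.01. Plin2, the most common droplet coat of the liver, had 0.07 ± 0.166 (adjusted p = 0.929).

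Cd36 and Lpl, which serve the supply of fatty acids to cells, rose as well. Cd36, the fatty acid translocase of the cell surface, had -1.44, -0.92 and -0.22 in cHF+PC and -0.79, 0.02 and 0.97 in cHF+PC+R. Its rise was 1.05 ± 0.216 (2.08-fold, adjusted p = 0.0363), seen on 7 of 8 slides, and 5 of 16 fits without 1 liver kept it past the threshold. Lpl, the lipase that frees fatty acids from circulating triglyceride, had -1.28, -0.37 and 0.64 in cHF+PC and 0.23, 0.73 and 1.24 in cHF+PC+R. It rose by 1.06 ± 0.194 (2.09-fold, adjusted p = 0.0144) on all 8 slides, with groups that overlapped, and stayed past the threshold in all 16 such fits. A dimmer Lpl probe gave 0.73 ± 0.143. Vldlr, a receptor that takes up triglyceride-rich particles, lay just outside the threshold at 0.78 ± 0.168 (adjusted p = 0.0521). It was the only one of the 11 measured members of a list of fatty acid uptake and binding, which holds neither Cd36 nor Lpl, with an unadjusted p under 0.05; 0 of the 11 passed with limma, and the median was 0.07. Gpat4, an acyltransferase at the entry to triglyceride synthesis, rose by 0.37 ± 0.0752 (adjusted p = 0.0311), higher on all 8 slides.

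**Figure D1:**
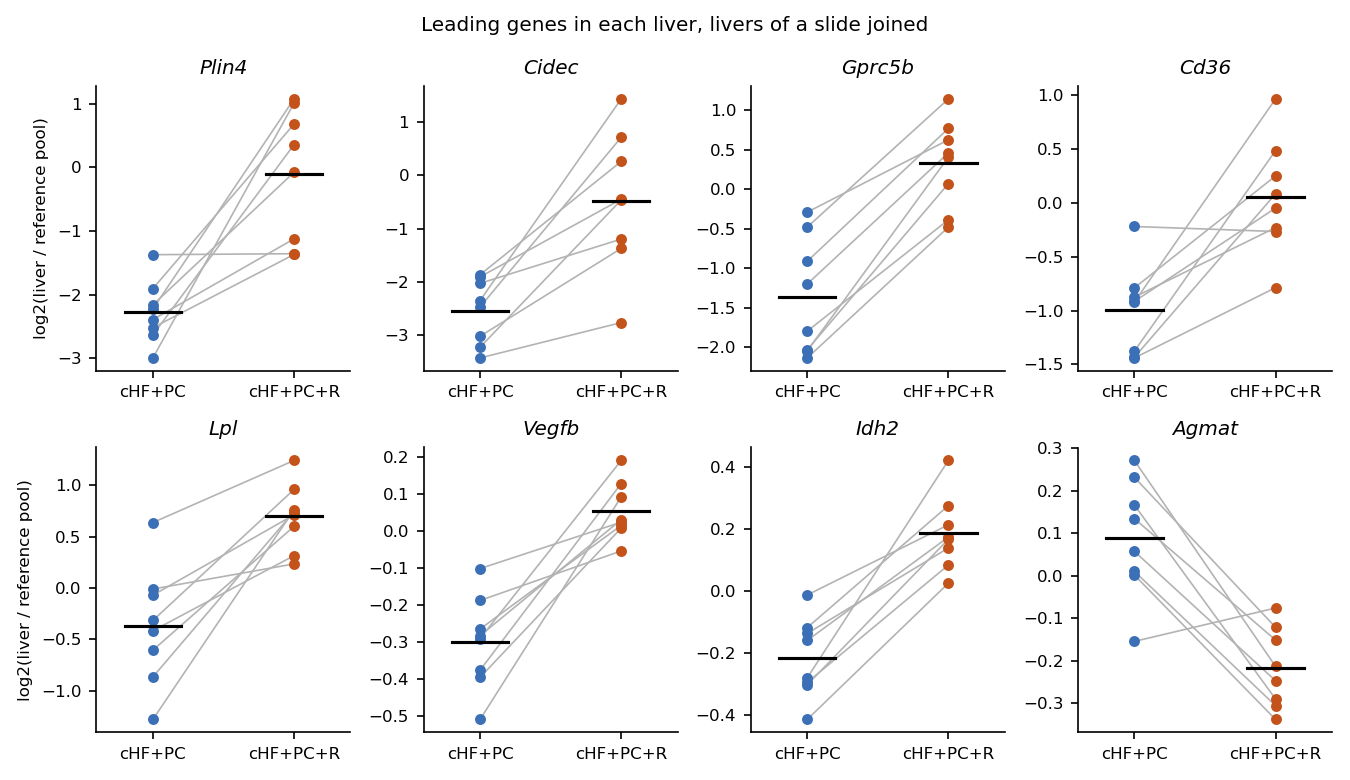
Log2 ratio to the reference pool of 8 genes in each cHF+PC and cHF+PC+R liver (points), with group means as black bars and the 2 livers of a slide joined by a grey line. Each of the lines for Cidec, Gprc5b, Lpl, Vegfb and Idh2 goes up, and 7 of 8 lines for Agmat go down.

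Plin4, Cidec, Lpl and Cd36 belong to a list of 20 PPAR-gamma targets and adipogenic genes. Of its 17 measured members these 4 rose and 0 fell, where 0.118% and 0.0154% of all genes did. The list's median change was 0.36, beside 0.00939 over all genes tested. The list was chosen with earlier results of these data known, so its values are a description and no test. The medians within slides ran from 0.02 to 1.42 and were above 0 on all 8. Cfd, the adipocyte protease adipsin, had the largest change of all at 2.62 ± 0.777, but its livers ranged from -6.07 to -2.56 in cHF+PC and from -4.96 to 2.84 in 7 cHF+PC+R livers (the spot of replicate 8 was marked as an outlier), and its adjusted p was 0.225. Cidea, a relative of Cidec, had 1.79 ± 0.853 (adjusted p = 0.579). Fabp4, a fatty acid carrier of adipocytes, had 0.36 ± 0.276 (adjusted p = 0.755). Pparg itself, the receptor's gene, had -0.04 ± 0.176 with a 95% interval from -0.40 to 0.32, higher on 4 slides and lower on 4.

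Of the 6 measured markers of fat tissue, Cfd had by far the largest change (2.62). Fabp4 had 0.36, Retn 0.26, Adrb3 0.10, Car3 0.06 and Thrsp -0.40. The mean level of the 6 adipocyte markers, Cfd included, ranged from -1.79 to -0.77 in cHF+PC and from -1.34 to 0.71 in cHF+PC+R. None of the 6 passed the test. Of the defining markers, Adipoq was well above background on 0 cHF+PC and 1 cHF+PC+R arrays, Plin1 on 0 and 0, and Lep on 2 and 0. The mean level of 10 hepatocyte markers ran from 0.14 to 0.66 in cHF+PC and from 0.14 to 0.53 in cHF+PC+R. Of these 10, 0 were higher and 2 lower at an unadjusted p under 0.05, where 4.91% and 3.62% of all genes were.

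Plin4 was compared with other genes from liver to liver within a group. In cHF+PC+R, replicate 6 was highest in Plin4 (1.08), Cidec (1.44), Cd36 (0.97) and Cfd (2.84). Replicate 2 was lowest in the same genes, at -1.37 for Plin4, -2.76 for Cidec, -0.79 for Cd36 and -4.96 for Cfd. Over the 8 cHF+PC+R livers, Plin4 and Cd36 had Pearson r = 0.829 (exact permutation p = 0.00662, adjusted 0.0155) and Spearman rho = 0.905 (exact permutation p = 0.00456, adjusted 0.0183). Without the 2 livers farthest from the Plin4 median r was 0.704. For Plin4 and Cidec r was 0.839 (exact permutation p = 0.00774, adjusted 0.0155) and rho 0.81 (exact permutation p = 0.0218, adjusted 0.0373), with r = 0.741 without those 2. Over the 8 cHF+PC livers Plin4 and Cd36 had r = 0.937 (exact permutation p = 0.00057, adjusted 0.00342) and rho 0.857 (exact permutation p = 0.0107, adjusted 0.0321), with r = 0.838 without 2. There Plin4 and Cidec had r = 0.727 (exact permutation p = 0.0361, adjusted 0.0619) and rho 0.81 (exact permutation p = 0.0218, adjusted 0.0373), with r = 0.719 without 2. Plin4 was also set against Cfd, an adipocyte marker. Over the cHF+PC livers r was 0.955 (exact permutation p = 0.000347, adjusted 0.00342) and rho 0.952 (exact permutation p = 0.00114, adjusted 0.0137), with r = 0.803 without 2. Over the 7 cHF+PC+R livers with a Cfd value r was 0.836 (exact permutation p = 0.00516, adjusted 0.0155) and rho 0.964 (exact permutation p = 0.00278, adjusted 0.0167), with r = 0.732 without 2. Lpl, the lipase, did not share this order: with Plin4 r was -0.478 in cHF+PC+R (exact permutation p = 0.239, adjusted 0.287) and rho -0.381 (exact permutation p = 0.36, adjusted 0.393), with r = -0.0942 without 2 livers. In cHF+PC Lpl had r = -0.509 (exact permutation p = 0.186, adjusted 0.248). Gprc5b had the highest r with Plin4 in cHF+PC+R, 0.893 (exact permutation p = 0.00335, adjusted 0.0134). In cHF+PC it had 0.261 (exact permutation p = 0.538, adjusted 0.587). Vegfb had 0.61 in cHF+PC+R (exact permutation p = 0.112, adjusted 0.167) and -0.147 in cHF+PC (exact permutation p = 0.74, adjusted 0.74). Without the 2 livers farthest from the Plin4 median, the groups differed less. Gprc5b then had r = 0.74 in cHF+PC+R and 0.588 in cHF+PC, and Vegfb 0.3 and 0.262. Before that, rho was 0.833 and 0.476 for Gprc5b, and 0.619 and -0.262 for Vegfb. The p-values are two-sided and adjusted over 12 relations, 6 in each group, picked after the levels had been seen. The genes of a liver share its array and its RNA.

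The same 2 livers bear on the count of calls. It was 56 without cHF+PC+R replicate 2 and 10 without replicate 6. It was 46 without replicate 5, 14 without replicate 8, 12 without replicate 3 and 11 without replicate 4 of cHF+PC+R, and 16, 15 and 17 without replicates 3, 6 and 7 of cHF+PC. All 26 genes remained past the threshold without cHF+PC+R replicate 2, and also without replicate 5. The 10 genes that passed in all 16 fits without 1 liver were Plin4, Gprc5b, Lpl, Rcan2, Tmem98, Ttc3, As3mt, Idh2, Vegfb and Agmat. Each of the other 16 lost its call without cHF+PC+R replicate 6, which for Pde3b was the only such liver.

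Several of these 10 had small changes with a narrow spread. Vegfb, a growth factor of the VEGF family, had -0.51, -0.29 and -0.10 in cHF+PC and -0.05, 0.03 and 0.19 in cHF+PC+R. It rose by 0.36 ± 0.0529 (1.28-fold, adjusted p = 0.00267) with groups that did not overlap. Idh2, the NADP-dependent isocitrate dehydrogenase of mitochondria, had -0.41, -0.22 and -0.01 in cHF+PC and 0.02, 0.17 and 0.42 in cHF+PC+R, a rise of 0.40 ± 0.0634 (adjusted p = 0.00267) without overlap. As3mt, an arsenic methyltransferase, had -0.61, -0.38 and -0.22 in cHF+PC against -0.11, 0.04 and 0.21, and rose by 0.46 ± 0.0691 (adjusted p = 0.00267), again without overlap. All 3 were higher in cHF+PC+R on all 8 slides. Within slides the difference ran from 0.13 to 0.60 for Vegfb, from 0.23 to 0.70 for Idh2 and from 0.20 to 0.76 for As3mt.

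Gprc5b, an orphan G protein-coupled receptor, passed under all 31 alternative settings. Its levels were -2.13, -1.50 and -0.29 in cHF+PC and -0.48, 0.43 and 1.14 in cHF+PC+R. The rise was 1.69 ± 0.277 (3.22-fold, adjusted p = 0.00351), from 0.92 to 2.45 within slides, and another probe gave 0.91 ± 0.274. Rcan2, a regulator of the phosphatase calcineurin, had -1.04, -0.47 and -0.17 in cHF+PC and -0.04, 0.31 and 0.76 in cHF+PC+R. It rose by 0.79 ± 0.142 (adjusted p = 0.012) with groups that did not overlap. Tmem98, a transmembrane protein, was the other gene without overlap, with -0.46, -0.35 and -0.11 against -0.06, 0.24 and 0.47 and a rise of 0.52 ± 0.0934 (adjusted p = 0.012).

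Ttc3 and Pigp, whose annotated starts lie close together on opposite strands of mouse chromosome 16, both rose. Ttc3, a ubiquitin ligase, had -0.48, -0.32 and -0.15 in cHF+PC and -0.25, 0.27 and 0.37 in cHF+PC+R (0.50 ± 0.0764, adjusted p = 0.00267). Pigp, a subunit of the enzyme that starts GPI anchor synthesis, had -0.22, -0.15 and -0.02 against -0.04, 0.37 and 0.70 (0.47 ± 0.0874, adjusted p = 0.0164). For both genes the groups overlapped, and both were higher on all 8 slides. Their dimmer probes did not show the change, with 0.09 ± 0.067 for Ttc3 and an unadjusted p of 0.936 for Pigp. The dimmer probe of Kdm2b, a histone demethylase, likewise gave 0.08 ± 0.0562, while the brightest gave 0.40 ± 0.0832 (adjusted p = 0.0395). Of 3 dimmer probes for Sh3bgrl2, a small SH3-binding protein, the changes were 0.45 ± 0.119, 0.14 ± 0.0771 and 0.09 ± 0.0589, beside 0.65 ± 0.123 for the brightest (adjusted p = 0.0197). For Ttc3, Pigp and Kdm2b the change was thus seen with the brightest probe only. For Sh3bgrl2 it was also seen, at a smaller size, with the dimmer probe at 0.45 ± 0.119. Which transcripts these probes bind was not tested.

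The other genes that rose had varied roles. Serpinb1a, an inhibitor of neutrophil elastase, rose by 1.49 ± 0.303 (adjusted p = 0.0333) and Anxa2, a calcium-dependent phospholipid-binding protein, by 1.12 ± 0.236 (adjusted p = 0.0414). Fam89a rose by 1.04 ± 0.203 (adjusted p = 0.0224), lower on slide 2 and higher on the other 7. Its dimmer probe gave 0.52 ± 0.145. Rdh9, a retinol dehydrogenase family member, rose by 0.87 ± 0.167 (adjusted p = 0.0197). Nt5e, an ectonucleotidase that releases adenosine, and Adgrg2, an adhesion receptor, each rose by 0.77. Pitpnm1, a phosphatidylinositol transfer protein, rose by 0.37 ± 0.0716 (adjusted p = 0.0206), and its dimmer probe gave 0.30 ± 0.0725. Pde3b, a phosphodiesterase that acts in insulin's block of lipolysis, rose by 0.32 ± 0.0598 (adjusted p = 0.0164).

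The 3 genes that fell were Slc13a3, Alas2 and Agmat. With only the compared groups in the fit, 0 genes fell past the threshold. Agmat, which hydrolyses agmatine, had -0.15, 0.10 and 0.27 in cHF+PC and -0.34, -0.23 and -0.08 in cHF+PC+R. It fell by 0.31 ± 0.0499 on the log2 scale (adjusted p = 0.00338) and was lower on 7 of 8 slides. Slc13a3, a sodium-coupled dicarboxylate transporter, had -0.36, 0.26 and 0.44 against -0.67, -0.49 and 0.08. It fell by 0.60 ± 0.125 (adjusted p = 0.0404) and was lower on all 8 slides, though 5 of 16 fits without 1 liver kept the call. Alas2, the erythroid enzyme that starts heme synthesis, fell by 0.41 ± 0.0863 (adjusted p = 0.0414) on 7 of 8 slides. Of the 5 measured erythroid markers Alas2 was the only one to pass, and the haemoglobin genes had 0.09 ± 0.189 (Hba-a1) and -0.06 ± 0.2 (Hbb-bt), while Car2, a carbonic anhydrase, had 0.44 ± 0.103 (adjusted p = 0.0789). The mean level of these markers ranged from -0.26 to 0.28 in cHF+PC and from -0.33 to 0.12 in cHF+PC+R.

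**Figure D2:**
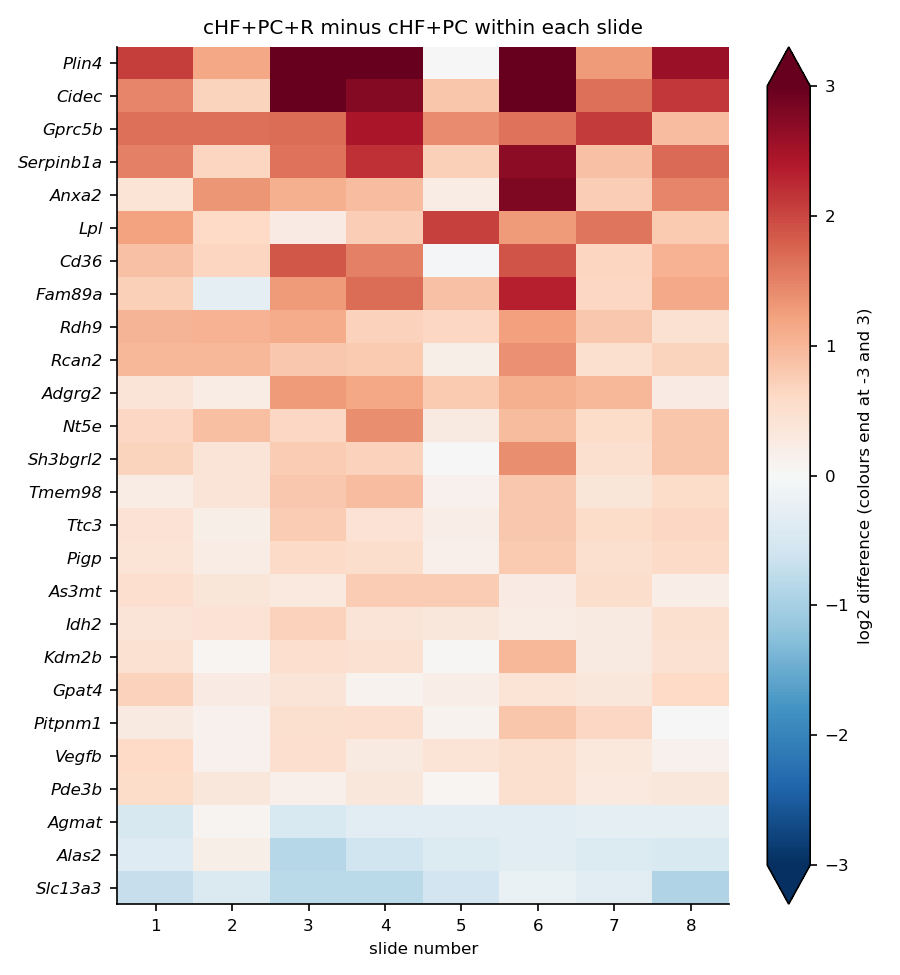
Difference in log2 ratio between the cHF+PC+R and the cHF+PC liver of each slide (columns, slides 1 to 8) for the 26 genes past the threshold (rows), red where cHF+PC+R was higher and blue where it was lower. For Plin4 the difference ran from 0.02 on slide 5 to 4.01 on slide 4, and for Slc13a3 it was below 0 on all 8 slides.

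The positions of the probes in the files' build, mm9, are chr17:56240055-56240114 for Plin4, chr6:113374630-113374689 for Cidec, chr7:126115825-126115884 for Gprc5b and chr5:17288600-17288659 for Cd36. For Lpl the position is chr8:71430267-71430326, for Vegfb chr19:7057245-7057304, for Idh2 chr7:87239736-87239795 and for Agmat chr4:141315091-141315150. Exons at these positions are not given in the sources used here.

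Of the 23 measured genes of peroxisomal and microsomal fatty acid oxidation, the typical targets of PPAR-alpha, 0 passed with limma and 15 had a change above 0. At an unadjusted p under 0.05, 10 were higher and 1 lower, where 4.91% and 3.62% of all genes were. The median change was 0.22, and medians within slides ran from -0.24 to 0.36, above 0 on 6 of 8. Acaa1b, a peroxisomal thiolase, had 0.57 ± 0.141 (adjusted p = 0.129), higher on all 8. Cyp4a10 and Cyp4a14, fatty acid hydroxylases of the microsomes, had 0.39 ± 0.146 (adjusted p = 0.412) and 0.79 ± 0.373 (adjusted p = 0.582). Probes of Cyp4a genes can bind each other's transcripts.

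Genes of lipid synthesis gave mixed values. Scd1, the desaturase that makes oleate, had -3.15, -1.75 and -0.28 in cHF+PC and -1.81, -0.45 and 1.15 in cHF+PC+R. Its change of 1.42 ± 0.434 was positive on all 8 slides, but the groups overlapped and the adjusted p was 0.238. Fasn, the fatty acid synthase, had 0.01 ± 0.262 (95% interval from -0.53 to 0.55), Acly, which supplies its acetyl-CoA, -0.08 ± 0.163 and Srebf1, a regulator of both, -0.05 ± 0.15. Among the 12 measured fatty acid synthesis genes 0 passed, with 1 higher and 1 lower at an unadjusted p under 0.05. Of the 20 cholesterol synthesis genes 0 passed and 1 was higher at an unadjusted p under 0.05. Sqle, squalene epoxidase, had 0.10 ± 0.411 with livers from -3.05 to -0.11 in cHF+PC and from -3.09 to 0.03 in cHF+PC+R.

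Among the 41 lists, 3 had a member past the threshold: the PPAR-gamma targets, triglyceride synthesis (Gpat4, 1 of 12) and the erythroid markers (Alas2, 1 of 5). Of the 14 measured extracellular matrix genes 0 passed. At an unadjusted p under 0.05, 6 were higher and 0 lower, where 4.91% and 3.62% of all genes were. Those 6 included the basement membrane collagens Col4a1 (0.24 ± 0.0733, adjusted p = 0.225) and Col4a2 (0.24 ± 0.0683, adjusted p = 0.191), the latter higher on all 8 slides. The mean level of the 9 stellate cell markers ran from -0.16 to 0.05 in cHF+PC and from -0.09 to 0.28 in cHF+PC+R, and that of the 9 endothelial markers from -0.18 to 0.01 and from -0.05 to 0.10. Of the endothelial markers 3 were higher and 0 lower at an unadjusted p under 0.05, where 4.91% and 3.62% of all genes were. Of the stellate cell markers 0 were higher and 0 lower at that level. The part of these cells in the matrix values was not tested. Of the 16 Cyp2a and other steroid hydroxylases 0 passed. At an unadjusted p under 0.05, 6 were lower and 1 higher, where 3.62% and 4.91% of all genes were. Cyp2d10 had -0.23 ± 0.0577 (adjusted p = 0.135), lower on all 8 slides, and Cyp2d9 had -0.30 ± 0.084 (adjusted p = 0.186). Whether the probes of these relatives bind each other's transcripts was not tested.

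**Figure D3:**
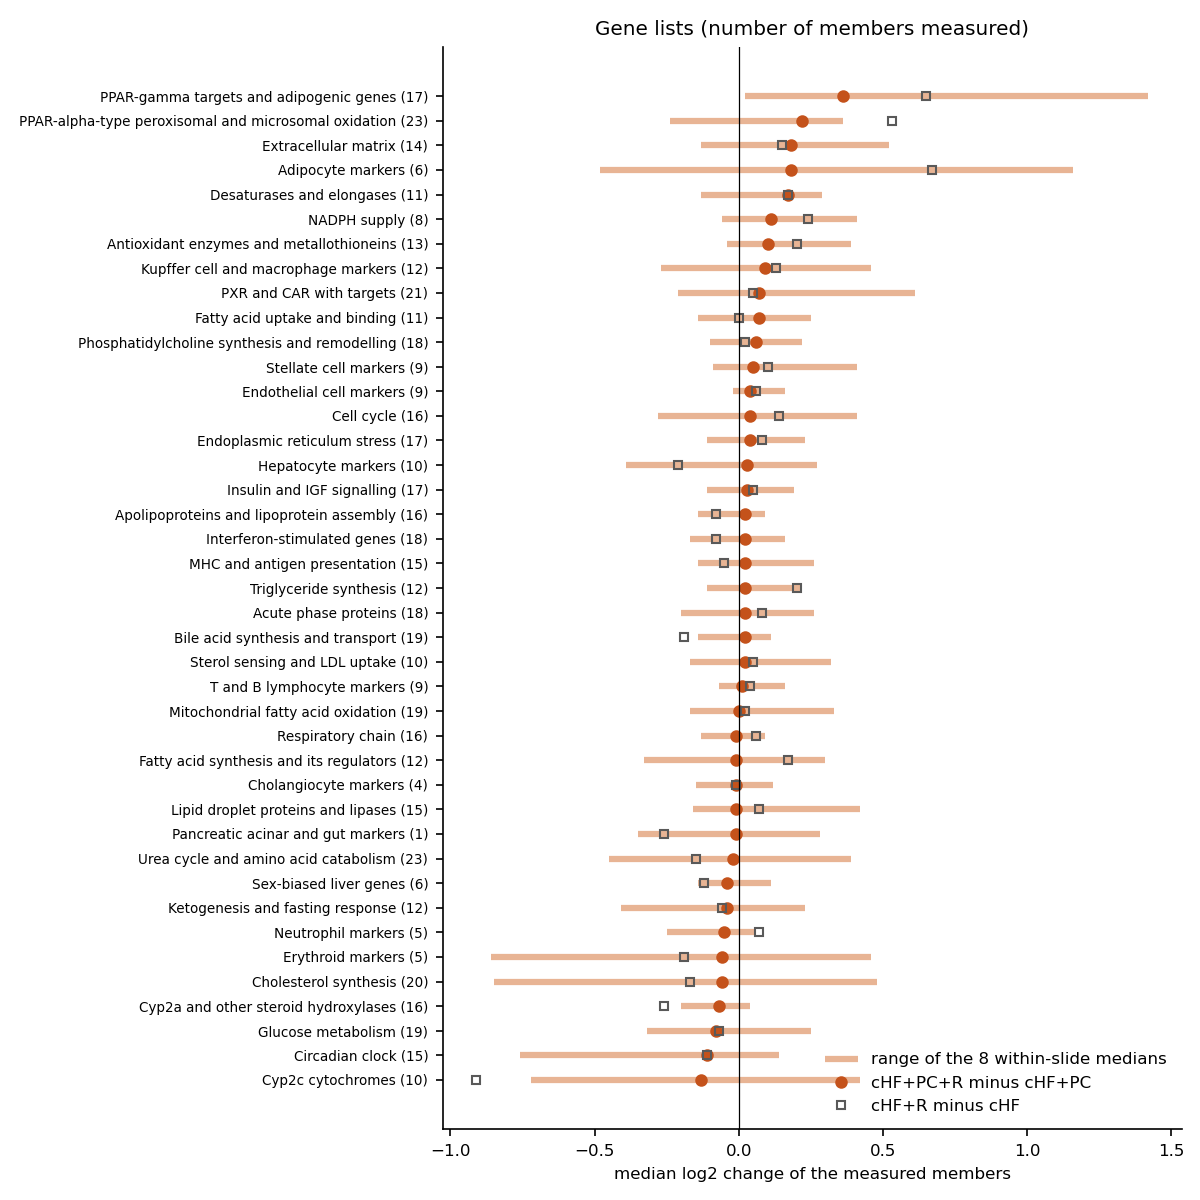
Median log2 change of the measured members of 41 gene lists (rows, number measured in brackets) for cHF+PC+R minus cHF+PC (filled circles) and cHF+R minus cHF (open squares), with the range of the 8 medians within slides as bars. The PPAR-gamma targets have the highest median with phospholipids (0.36), and the Cyp2c cytochromes have -0.13 with phospholipids and -0.91 without.

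The same drug change was then read without phospholipids. The arrays of cHF+R and cHF do not enter the group means of the first comparison. They do enter its estimate of the spread and its choice of probes. In cHF+R against cHF 608 genes passed (3.12%). All 26 genes called with phospholipids were among them and moved the same way, which is 100% of the 26 and 4.28% of the 608. The changes of both comparisons come from 1 fit whose 4 groups share an estimate of the spread. In separate fits of each pair of groups, chosen after seeing the data, 11 and 586 genes passed, and all 11 were among the 586. All 11 rose, and 9 of them were among the 26. In 23 of the 26 genes the change was larger without phospholipids. Their median size was 0.62 with and 0.79 without them on the log2 scale. Cell type markers also moved in cHF+R against cHF. Of the 6 adipocyte markers 3 rose there (Cfd by 4.51, adjusted p = 0.0015, Fabp4 by 1.27, adjusted p = 0.0168, and Retn by 0.65, adjusted p = 0.0458), and their mean level ran from -0.98 to -0.51 in cHF and from -0.51 to 1.47 in cHF+R. Of the 10 hepatocyte markers 3 fell. The part of these cells in the larger changes was not tested. Fam89a, Rcan2 and Pitpnm1 had the larger change with phospholipids, by less than the standard error in each.

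**Figure D4:**
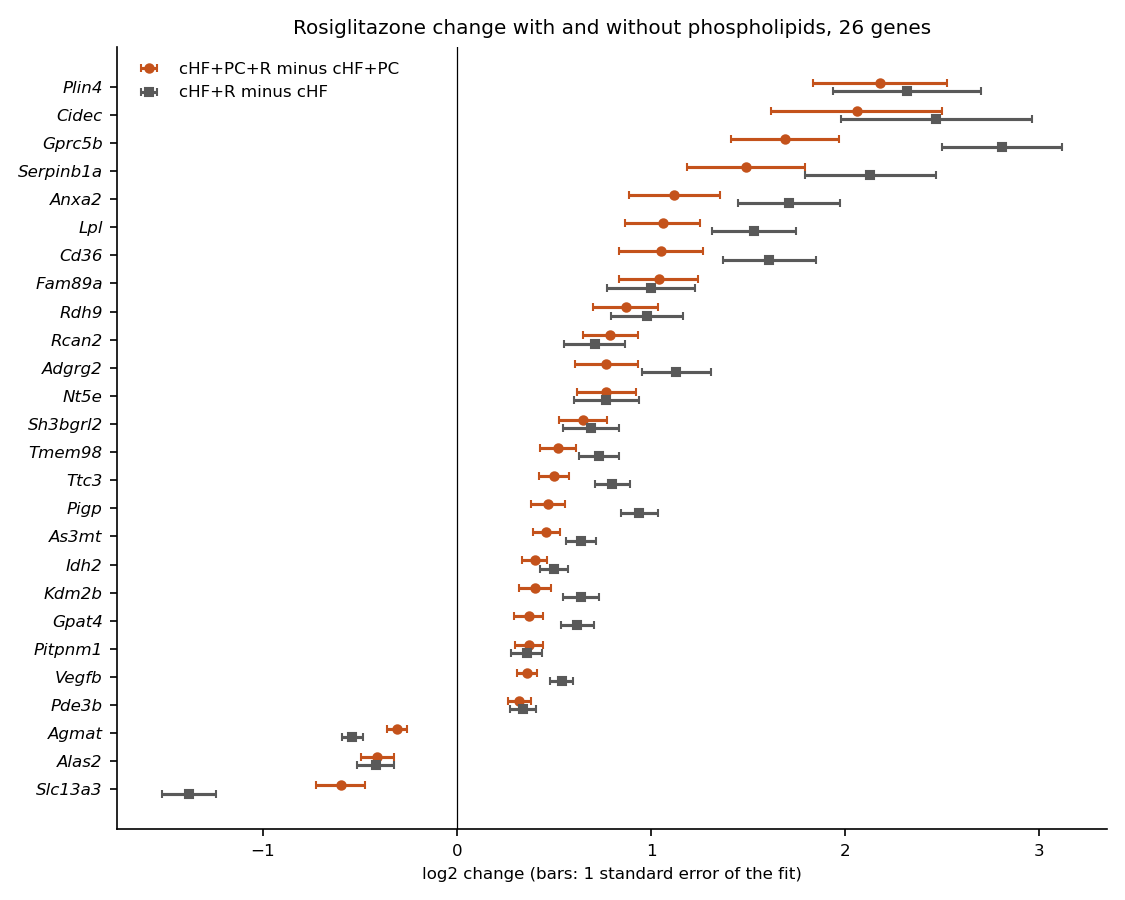
Log2 change with rosiglitazone in the presence of phospholipids (circles) and in their absence (squares) for the 26 genes past the threshold in the former, with bars of 1 standard error of the fit. All 26 lie on the same side of 0 in both. For Gprc5b (1.69 and 2.81), Slc13a3 (-0.60 and -1.38) and Pigp (0.47 and 0.94), among others, the bars do not touch. The difference between both changes, tested directly with limma, had adjusted p = 0.652 for Gprc5b, 0.275 for Slc13a3 and 0.492 for Pigp.

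The 608 genes called without phospholipids kept their direction in 564 cases (92.8%) when phospholipids were present, against 61.0% of all genes. Their median size was 0.33 without phospholipids, and their median change along the same direction was 0.12 with them. In 602 of the 608 the size was smaller with phospholipids. These genes were chosen for their change in cHF+R against cHF, so both sizes are given as a description, with no test. Over all genes, the median size of the change was 0.0597 without and 0.0462 with phospholipids, and the median standard errors were 0.0617 and 0.0555.

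The difference between both drug changes was tested directly as an interaction. With limma 0 genes passed (0%), and the smallest adjusted p was 0.156. At an unadjusted p under 0.05 there were 1294 genes (6.63%). Among the 26 genes 7 reached that level: Gprc5b, Ttc3, Pigp, Gpat4, Vegfb, Agmat and Slc13a3, all with the smaller change in the presence of phospholipids. Slc13a3 fell by 0.60 with phospholipids and by 1.38 without, a difference of 0.78 ± 0.188 (adjusted p = 0.275). For Plin4 the difference was -0.15 ± 0.515 and for Cidec -0.42 ± 0.66, and neither was detectable with these standard errors.

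The 5 genes with the smallest p in the interaction were Gm6100, Fabp5l2, Cyp2c37, Tlcd5 and Smcp. Gm6100 and Fabp5l2 are near copies of Fabp5, an epidermal fatty acid carrier, and their probes cannot be told apart from that gene's transcript. Fabp5 had -0.88 ± 0.261 (mean and SD) in cHF, 1.14 ± 0.408 in cHF+R, -0.82 ± 0.465 in cHF+PC and -0.44 ± 0.646 in cHF+PC+R. Rosiglitazone changed it by 2.03 ± 0.262 without phospholipids (adjusted p = 2.21e-05) and by 0.38 ± 0.224 with them (adjusted p = 0.662), an interaction of -1.65 ± 0.345 (adjusted p = 0.169). Tlcd5, a TLC domain protein, had 0.55 ± 0.0714 without phospholipids (adjusted p = 2.12e-05) and 0.09 ± 0.0641 with them. Smcp, a sperm mitochondrial protein, had 0.71 ± 0.111 and -0.01 ± 0.0998.

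Cyp2c37, of a family of hydroxylases of drugs and fatty acids, was at -0.07 ± 0.17 (mean and SD) in cHF, -1.24 ± 0.345 in cHF+R, 0.23 ± 0.339 in cHF+PC and 0.11 ± 0.313 in cHF+PC+R. It fell by 1.17 without phospholipids (adjusted p = 3.28e-05), had -0.12 ± 0.141 with them, and the interaction was 1.05 ± 0.211 (adjusted p = 0.156). Of the 10 measured Cyp2c genes 6 fell in cHF+R against cHF and 0 in cHF+PC+R against cHF+PC, where 1 was higher and 0 lower at an unadjusted p under 0.05. None of the 10 passed in the interaction. Cyp2c55 had 0.48 without phospholipids (adjusted p = 0.103) and 0.51 ± 0.142 with them (adjusted p = 0.171). The medians of the 10 were -0.91 and -0.13. Their probes can bind several relatives, so the members are not separate measurements.

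Ehhadh and Cyp4a10, of the PPAR-alpha targets, had their lowest group means in cHF and their highest in cHF+PC+R. Ehhadh, the bifunctional enzyme of peroxisomal oxidation, was at -0.92 ± 0.212 in cHF, 0.05 ± 0.332 in cHF+R, 0.19 ± 0.246 in cHF+PC and 0.49 ± 0.121 in cHF+PC+R. The drug's change was 0.97 ± 0.122 without phospholipids (adjusted p = 1.49e-05) and 0.30 ± 0.11 with them (adjusted p = 0.412), an interaction of -0.67 ± 0.165 (adjusted p = 0.296). Cyp4a10 was at -1.64 ± 0.296, -0.50 ± 0.179, 0.13 ± 0.182 and 0.52 ± 0.461 in the same order of groups.

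**Figure D5:**
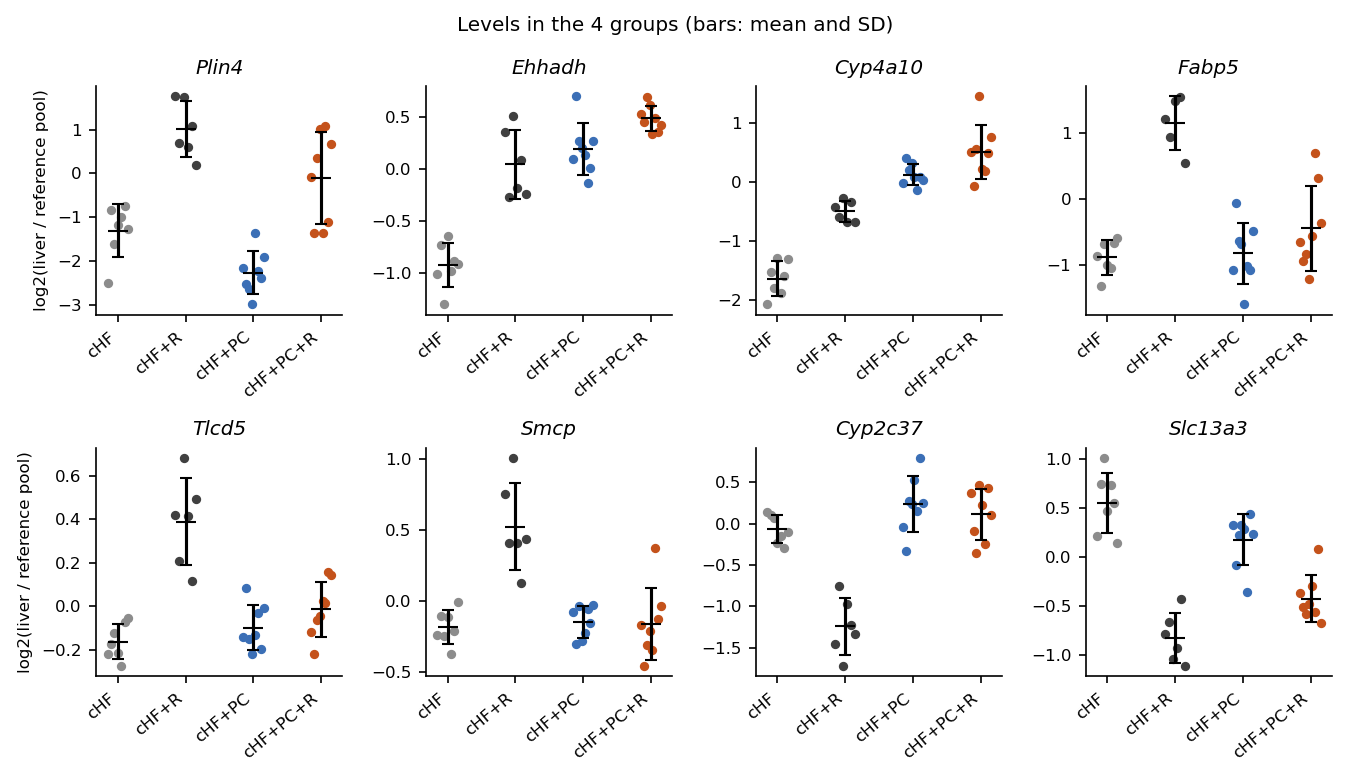
Log2 ratio to the reference pool of 8 genes in each liver of the 4 groups (points), with the mean and SD as bars. Fabp5, Tlcd5 and Smcp are high in cHF+R alone among the 4 group means and Cyp2c37 is low there, while the mean of Plin4 is higher with rosiglitazone on both diets.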

How the data were processed

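The labels describe individual liver RNA, split and labelled with Cy5 and, pooled over livers, with Cy3. No dyes were swapped. Each array's deposited scanner file holds, per the file headers, the linear intensity of every spot, read with Agilent Feature Extraction 10.5.1.1 per the submitters' processing notes. A further table, deposited by the authors, gives log2 values with a median of 9.027 in each column, which followed the Cy5 channel (r from 0.990 to 0.999). Its centring and normalization are not given in the sources used here, and it served as an alternative. Per the labels, 1 cHF and 1 cHF+R array were excluded by the authors.

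Intensities were background-corrected with normexp (offset 50) and loess was applied within each array (limma 3.58.1, run in R 4.3.3). Control and outlier spots were left out, and spots of a probe averaged. Of 39429 probes, 23981 were well above background on at least 6 arrays with values on at least 20. Background and outlier flags were taken from the deposited files. Each gene took its brightest probe, giving 19509 genes, of which 3780 had several. Names came through GRCm38.p6, used for names and promoters. The lowest correlation between arrays was -0.305 (cHF+PC replicate 6 with cHF+R replicate 5), and the direction follows the dyes in the labels. It was 0.0257 among the 16 arrays.

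A model of 4 group means was fitted to all 29 arrays (lmFit, eBayes), with two-sided tests, the Benjamini-Hochberg adjustment across the tested genes and calls at an adjusted p under 0.05. Each ± after a change is its standard error. The test was run on simulated data with known changes and noise drawn independently for each gene. Of changes of 0.3 on the log2 scale 76% were recovered, of 0.6 96%, and 7 unchanged genes were called. Such data hold no noise shared between genes and no outlying livers, so they do not give the error rate here. Named genes are the 10 largest rises and falls past the threshold, up to 4 members of each list, anchor genes of lipid metabolism and 5 genes of the interaction. The remaining 12 called genes, Vldlr, Fabp5 and the list examples that did not pass were named after their values were seen. An anchor gene is not reported here. The members and lists were chosen with earlier results of these data known. Same-numbered livers of both groups share a slide, but their deviations correlated by -0.141 to 0.396, so the pairing was not in the main fit. Alternatives covered background correction, normalization, filters, probe choice, blocks, weights and each liver left out.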

Additional observations from a re-analysis of the deposited data

Results flagged for a closer look

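In 118 groups of values (the named genes in cHF+PC and in cHF+PC+R), 6 held a liver far from the others of its group by Dixon's criterion at 95%, about the share of 1 in 20 that chance flags. None of these genes passed the test between the groups. In cHF+PC+R, replicate 4 had the highest Cyp4a14 level at 2.43, the next being 1.08, and the lowest level of Acaca, the acetyl-CoA carboxylase gene, at -0.82, the next being -0.41. Replicate 7 of that group had the highest level of Pck1, a gluconeogenic enzyme, at 1.75, the next being 0.41. Replicate 6, which was highest in Plin4 and Cidec, had the lowest Igfbp2 at -0.15, while the others started at 0.49. In cHF+PC, replicate 2 had the lowest Acly at -0.94, the next being -0.59, and replicate 3 the highest Acaca at -0.18, the next being -0.41.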

How the results depend on the processing

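None of the 26 genes changed direction under any of the 31 alternatives run. Of the 806 values of single called genes under them 574 stayed past the threshold and 232 did not. The 26 calls became 81 without background subtraction, 63 with Feature Extraction's processed signals, 61 with the deposited table, 40 with quantile-normalized Cy5 alone and 161 with array weights. They became 5 with scaling between arrays and 2 with median centring. With only the compared groups in the fit they became 11, all rises, of which 9 were among the 26. With the replicate number as a block in those groups there were 16 calls, of which 9 were among the 26, and Scd1 passed (adjusted p = 0.038). That block holds only livers that share a number and a slide, and 2 of 8 cHF+PC livers correlated best with their own number. Leaving out 1 liver gave 10 to 56 calls. The 608 calls in cHF+R against cHF became 81 with median centring, 70 with scaling, 298 with Cy5 alone, and 478 to 671 without cHF replicate 4 or a liver of cHF+PC or cHF+PC+R, the arrays left out in turn. Median centring moved the median change of all genes there to 0.151. The interaction gave 3 genes with array weights and 0 to 4 with one of those left out, the 4 without cHF+PC+R replicate 6. List medians moved beyond the spread between slides in 11 of 1271 cases. The cause of these shifts was not tested.

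With 8 arrays a group the median standard error was 0.0555 on the log2 scale, so small changes of variable genes were not detectable. The number of arrays limits the precision.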

Other observations

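Genes that handle phosphatidylcholine, the main lipid of the supplement, were among those with small differences that did not pass the test. Of 18 measured genes of its synthesis and remodelling 0 passed with limma, and 2 were higher and 2 lower at an unadjusted p under 0.05. Chdh, the choline dehydrogenase, had 0.16 ± 0.0631 (adjusted p = 0.476), and Bhmt, which uses betaine made from choline to methylate homocysteine, had -0.44 ± 0.168 (adjusted p = 0.431). Etnk2, an ethanolamine kinase, had -0.28 ± 0.113 (adjusted p = 0.465). Among 11 desaturases and elongases, Fads1, which desaturates polyunsaturated fatty acids, had 0.22 ± 0.0983 (adjusted p = 0.554), higher on 7 of 8 slides, and Elovl1 had 0.17 ± 0.0624 (adjusted p = 0.412).

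Secreted hepatocyte proteins included Serpina1a, an antitrypsin, with -0.27 ± 0.0741 (adjusted p = 0.175), lower on all 8 slides, and its relative Serpina1c with -0.22 ± 0.0789 (adjusted p = 0.401). Their probes can bind each other's transcripts. Gpat3, a relative of Gpat4, had 0.54 ± 0.185 with phospholipids (adjusted p = 0.343) and rose by 1.25 without them (adjusted p = 0.00037). Stab2, an endothelial scavenger receptor, had 0.25 ± 0.109 (adjusted p = 0.526) and was higher on all 8 slides. The Kupffer cell markers had a median of 0.09, with 11 of 12 above 0 and 0 past the threshold, and 0 of them at an unadjusted p under 0.05.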
